A study of Mus musculus with 20 samples.

Results

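The genes described here are 10 regulators of stress signalling and stem cell quiescence: the forkhead factors Foxo1, Foxo3 and Foxo4, the tumour suppressor gene Trp53 and its antagonist Mdm2, and Txnip, Fbxw7, Zfp36l1, Zfp36l2 and Cited2. They were chosen by gene symbol, and every deposited peak inside each gene or within 20 kb of its annotated ends on mm10 was collected, library by library and genotype by genotype. They are 10 of 21627 protein-coding genes on chromosomes 1 to 19 and X. The cells were hematopoietic stem cells (HSC) purified by flow cytometry from adult mice after poly(I:C), a double-stranded RNA mimic that induces the Mx1 promoter and with it the Cre recombinase. Control mice (WT) had the genotype Mx1-Cre-/-;mTORflox/flox, mTOR-deleted mice (KO) were Mx1-Cre+/-;mTORflox/flox, and mice with 1 further floxed c-Myc allele (KO MycHet) were Mx1-Cre+/-;mTORflox/flox;c-Myc+/flox. All of them carried floxed mTOR alleles and received poly(I:C), and no group carried Mx1-Cre without floxed mTOR. Mx1-Cre is not confined to HSC, so the KO cells came from animals that could lose mTOR in other cells too. ChIP-seq of the active chromatin mark H3K27ac, of the promoter mark H3K4me3 and of the transcription factor MYC gave 1 WT and 1 KO peak list each. ATAC-seq, which cuts accessible DNA with a transposase, gave 2 lists for each of WT, KO and KO MycHet, from 50000 cells a library. RNA-seq samples of the series were not analysed here.

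FoxO factors are held in the cytoplasm when AKT phosphorylates them; when growth factor signalling is low they enter the nucleus and induce genes for antioxidant defence, cell cycle arrest and autophagy, and HSC that lack them leave quiescence. The p53 protein induces arrest and apoptosis genes after DNA damage or nucleolar stress and also induces Mdm2, the ubiquitin ligase that degrades it. TXNIP, which binds thioredoxin, FBXW7, the ubiquitin ligase subunit that targets MYC, CITED2, a partner of CBP and p300, and ZFP36L1 and ZFP36L2, which bring decay enzymes to AU-rich mRNAs, have each been tied to quiescence or self-renewal in blood.

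Of the 10 genes, 8 had an entry in the promoter table of RefSeq (GRCm38.p6, the assembly also called mm10), with 250 bases before to 50 bases after the annotated start; Foxo4 and Zfp36l2 were the others. The sequences of 4 are shown because they hold the letters of a motif for MYC, FoxO or p53, which are the factors these genes encode or answer to. Capitals mark the E-box CACGTG, the FoxO site TGTTTAC or its complement GTAAACA, and a p53 half-site by its usual consensus, each searched on both strands. Each window runs 5′ to 3′ on the gene's strand: Trp53 chr11:69580109-69580408 (+), Cited2 chr10:17722978-17723277 (+), Mdm2 chr10:117710709-117711008 (-) and Txnip chr3:96557707-96558006 (+).
Trp53: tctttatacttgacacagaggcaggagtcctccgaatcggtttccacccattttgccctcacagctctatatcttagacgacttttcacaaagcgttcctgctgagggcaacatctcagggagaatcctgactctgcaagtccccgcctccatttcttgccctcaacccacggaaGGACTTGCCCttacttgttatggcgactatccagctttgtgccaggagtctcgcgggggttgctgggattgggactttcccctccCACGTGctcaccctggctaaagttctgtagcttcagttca
Cited2: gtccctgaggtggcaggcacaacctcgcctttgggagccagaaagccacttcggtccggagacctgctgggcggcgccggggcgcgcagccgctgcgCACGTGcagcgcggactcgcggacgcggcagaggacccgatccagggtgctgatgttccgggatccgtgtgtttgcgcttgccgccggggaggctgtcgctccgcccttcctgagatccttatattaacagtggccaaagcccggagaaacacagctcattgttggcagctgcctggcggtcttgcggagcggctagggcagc
Mdm2: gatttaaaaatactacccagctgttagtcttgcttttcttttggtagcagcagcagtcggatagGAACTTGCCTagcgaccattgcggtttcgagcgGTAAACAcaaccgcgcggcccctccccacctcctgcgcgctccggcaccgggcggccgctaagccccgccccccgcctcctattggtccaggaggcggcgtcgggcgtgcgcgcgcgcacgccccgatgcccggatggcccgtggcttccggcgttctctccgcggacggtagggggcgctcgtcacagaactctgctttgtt
Txnip: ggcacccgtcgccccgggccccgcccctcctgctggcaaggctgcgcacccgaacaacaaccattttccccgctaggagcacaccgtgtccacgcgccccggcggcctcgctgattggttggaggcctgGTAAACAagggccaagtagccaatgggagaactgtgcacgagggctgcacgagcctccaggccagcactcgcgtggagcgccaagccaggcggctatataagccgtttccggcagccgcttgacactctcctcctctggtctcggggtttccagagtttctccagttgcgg

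The E-box stood in the Trp53 window, with its first base at position 11 counted from the annotated start, and in the Cited2 window at position -153. These were also the 2 windows that a KO MYC peak overlapped among the 10 windows of these genes (3 of them are Fbxw7's), and the Trp53 window alone was overlapped by a WT MYC peak. KO MYC was also listed near the starts of Foxo3 (score 113) and Fbxw7 (70.5), 0.51 and 0.83 kb away, which is outside their windows. The WT MYC peak near the Foxo3 start lay outside as well. An E-box was present in 7.91% of all 21044 promoters in the table. Of those promoters, 25.95% with an E-box and 16.3% without one overlapped a KO MYC peak, and 9.97% and 6.38% overlapped a WT one. The FoxO site began at position -153 in the Mdm2 window and at -121 in the Txnip window, and 3.03% of all promoters held one. The p53 half-site began at position -186 in the Mdm2 window and at -75 in the Trp53 window, and 7.37% of all promoters held one. No E-box, FoxO site or p53 half-site was in the windows of Foxo1, Foxo3, Fbxw7 and Zfp36l1, which says nothing about binding of the factors. The windows of Foxo3 and Mdm2 held 35 CpG dinucleotides each and those of Foxo1 31, whereas the Trp53 window held 10, and the median over all promoters was 13.0.

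The lists differed in length in ways that reach every comparison of genotypes. The KO list was longer for H3K27ac (20036 against 10078 peaks), for MYC (22086 against 8774) and slightly for H3K4me3 (16019 against 15089). The ATAC-seq lists held 17303 to 72149 peaks, and the second WT and KO lists were each over 3 times as long as the first. The lists carry no read counts, so depth is unknown, and a mark in fewer cells cannot be told apart from less of it in each cell. As a check of the labels, the Mtor start was marked in each of the 5 WT libraries, in 0 of the 5 KO ones and in 0 of the 2 from KO MycHet. Of 9 HSC marker genes, 6 had an H3K4me3 start peak in WT and 6 in KO, and 7 and 9 had an ATAC-seq start peak in at least 1 library of WT and KO. Of the markers of other cells, H3K4me3 start peaks were at 3 of 5 erythroid genes in either genotype, at 1 of 5 myeloid genes in WT and 0 in KO, and at no B cell gene of 4. Such peaks were at 1 of 4 T or NK genes in KO and 0 in WT, at 2 of 4 megakaryocyte genes in WT and 1 in KO, and at 1 of 4 stromal or endothelial genes in either; their part in the results was not tested.

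All 10 genes had an H3K4me3 peak at the start in WT, as did 53.9% of all genes. H3K27ac was there at 9 of them in KO (39.6% of all genes) and at 4 in WT (14.6%). A peak was taken to be at the start when it came within 1 kb of the annotated start, or of either annotated end for Foxo4 and Zfp36l2, whose strand the table does not hold. The calls of Zfp36l2 pool its ends: WT H3K27ac and WT MYC were within 1 kb of the lower end only, while 4 of the 6 ATAC-seq libraries had a peak within 1 kb of the upper end only. With the upper end as its start, an alternative chosen after seeing the data, Zfp36l2 has H3K27ac in KO only and no MYC call; with the lower end it is not open in all 6 libraries. Its H3K4me3 call is WT only at either end. The H3K4me3 and H3K27ac start peaks of Foxo4 were within 1 kb of its lower end only. The genes divided into sets by these marks. Fbxw7, Zfp36l1, Mdm2, Foxo4 and Cited2 had start H3K27ac in KO only, 5 of 10 genes against 25.7% of all genes, and H3K4me3 in both lists. With Foxo1, these are the 6 genes with H3K4me3 in both, a call made for 52.4% of all genes. Foxo3, Trp53, Txnip and Zfp36l2 had start H3K27ac in both lists, 4 of 10 against 13.9% of all genes. The same 4 had an H3K4me3 start peak in WT only, against 1.53% of all genes. Foxo1 had H3K4me3 in both and H3K27ac in neither, a state of H3K27ac shared by 59.7% of all genes. No member had a start H3K27ac peak in WT only, a call made for 0.744% of all genes, or an H3K4me3 start peak in KO only, made for 2.62%. The H3K27ac calls changed with the lists: with equal numbers of WT and KO peaks, KO only was left at Fbxw7, Mdm2 and Zfp36l1, and Txnip and Zfp36l2 were WT only. Counting only scores of at least 100, Zfp36l2 was WT only, and Foxo3 and Trp53 took the places of Foxo4 and Cited2 among the 5 in KO only. H3K4me3 in WT only held for the same 4 genes with equal numbers, and for Foxo3 and Trp53 at scores of at least 100. Each ChIP-seq target was measured in 1 library of each genotype, so these calls have no replicate check and no test.

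The calls were also set beside those of genes that were themselves marked or open. Among the 11659 genes with H3K4me3 at the start in WT, 45.7% had start H3K27ac in KO only, close to the 5 of 10 members. Among those also open in all 6 ATAC-seq libraries it was 49.6%, against 4 of 9 members. The share with H3K4me3 in WT only stayed low in each such set: 2.84% of genes with WT H3K4me3, 2% of genes with H3K27ac in both lists, 1.17% of genes with H3K27ac in KO only and 1.32% of genes with KO H3K27ac and open starts in all 6 libraries. Members numbered 4 of 10, 4 of 4, 0 of 5 and 4 of 8 in these sets. The split between 4 of 4 and 0 of 5 depended on the setting. At scores of at least 100, Foxo3 and Trp53 had H3K27ac in KO only and H3K4me3 in WT only. So did Zfp36l2 with its upper end as the start. A start window of 2.5 kb left these H3K27ac and H3K4me3 calls unchanged. With equal numbers of peaks, no member with H3K27ac in KO only had H3K4me3 in WT only. A start with WT H3K4me3 and KO H3K27ac but no KO H3K4me3 peak was found for 125 genes (0.578%), and 92 of these (0.425%) were open in all 6 libraries; the 4 members are in both sets, Zfp36l2 in the second through its upper end.

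**Figure D1:**
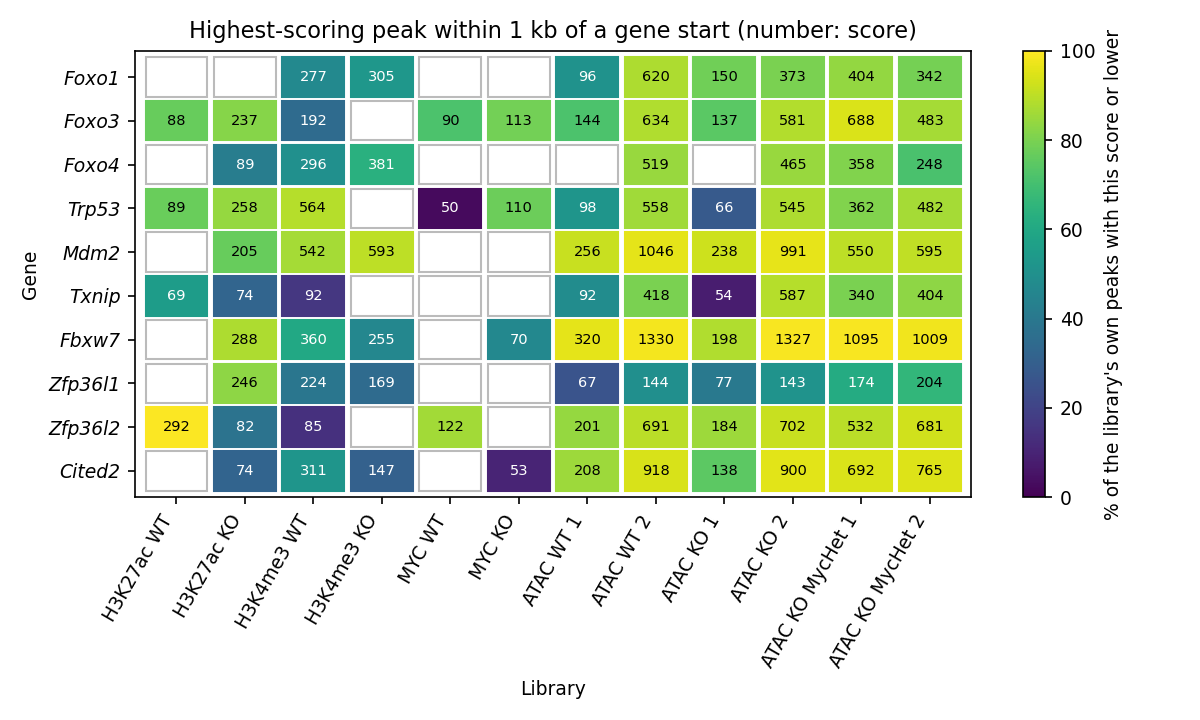
Highest-scoring peak within 1 kb of the start of each of the 10 genes (rows) in each of the 12 peak lists (columns). The number is the score the authors deposited, the colour is the percentage of the same list's peaks with that score or a lower one, and an empty cell means no peak; the H3K4me3 KO column is empty for Foxo3, Trp53, Txnip and Zfp36l2, and the H3K27ac WT column for the other 6 genes.

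Foxo3, the forkhead factor most tied to HSC maintenance, lies at chr10:42181845-42276695 (gene 56484, minus strand) with no other protein-coding gene within 20 kb. Its start carried an H3K4me3 peak 6.49 kb wide with a score of 192 in WT, and no KO peak came closer than 200.1 kb, where one lay at the start of Afg1l. In the same place the H3K27ac peak was 0.609 kb wide with a score of 88.3 in WT and 4.11 kb wide with a score of 237 in KO. These H3K27ac scores were at or above 76.9% of the WT list and 81.8% of the KO list, so the peak stood at a similar level of each list while its width differed. MYC was listed at the Foxo3 start in both genotypes, with a score of 90.0 in WT and 113 in KO. The KO list had 3 further MYC peaks: 12.5 kb before the start (score 117), 32.2 kb into the gene (64.9) and 56.4 kb into it (52.0). The peak at 32.2 kb lay on DNA open in all 6 ATAC-seq libraries and that at 56.4 kb on DNA open in 4, whereas the upstream one met no peak of any other list.

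Foxo1 lies at chr3:52268337-52350109 (gene 56458, plus strand). Its start peak of H3K4me3 was 4.29 kb wide with a score of 277 in WT and 4.79 kb wide with a score of 305 in KO. No H3K27ac peak was listed anywhere in its window in either genotype. MYC had 2 peaks in KO, 11.6 kb before the start (69.8) and 86.8 kb after it (82.5), and none in WT; neither met a peak of another list. Foxo4, the X-linked member of the family at chrX:101254261-101260873 (gene 54601), had a narrower H3K4me3 peak at its lower end, 2.55 kb wide (score 296) in WT and 2.70 kb wide (381) in KO. The H3K27ac peak there was listed in KO only, with a score of 88.8 and a width of 0.682 kb. In the Foxo4 window the KO list also had H3K27ac at the starts of Il2rg (225), the common gamma chain receptor gene, and Med12 (144), a Mediator subunit gene. Foxo4 had no MYC peak in its window in either list.

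Trp53 lies at chr11:69580348-69591873 (gene 22059, plus strand) and shares its start region with Wrap53, whose start is also within 1 kb of each of the Trp53 start peaks in ChIP-seq. The WT H3K4me3 peak there was 5.28 kb wide and had a score of 564, rank 1688 of 15089 peaks. The KO list had no H3K4me3 peak nearer than 22.2 kb, at the start of Atp1b2. That neighbouring H3K4me3 peak was listed in both genotypes, with a score of 150.2 in WT and 214 in KO. H3K27ac at the Trp53 start was 0.875 kb wide (88.7) in WT and 3.52 kb wide (258) in KO. MYC at the same start had a score of 50.4 in WT, just above the lowest deposited score of 50, and 109.6 in KO. The WT MYC peak was at or above only 2.67% of its list and the KO peak at or above 77.4% of its own. The MYC peaks covered 257 of the 300 printed promoter bases in WT and all 300 in KO, the E-box included. In KO, MYC was further listed 5.5 kb into Trp53 (54.4) and at the Atp1b2 start (60.4).

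Mdm2 lies at chr10:117688875-117710758 (gene 17246, minus strand). Unlike Trp53, it had H3K4me3 of nearly the same width and score in both genotypes, 4.21 kb (542) in WT and 4.32 kb (593) in KO. The KO list had H3K27ac at the start, 3.80 kb wide with a score of 205, and a small peak 17.2 kb into the gene (70.1), where WT had neither. MYC was absent from the start in both lists. Both listed it 14.4 kb upstream, with a score of 60.5 in WT and 89.4 in KO, at a place no other list marked. By presence alone, the genotypes differed at Trp53 in H3K4me3 and at Mdm2 in H3K27ac, although the Trp53 H3K27ac peak was also wider and higher in score in KO.

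**Figure D2:**
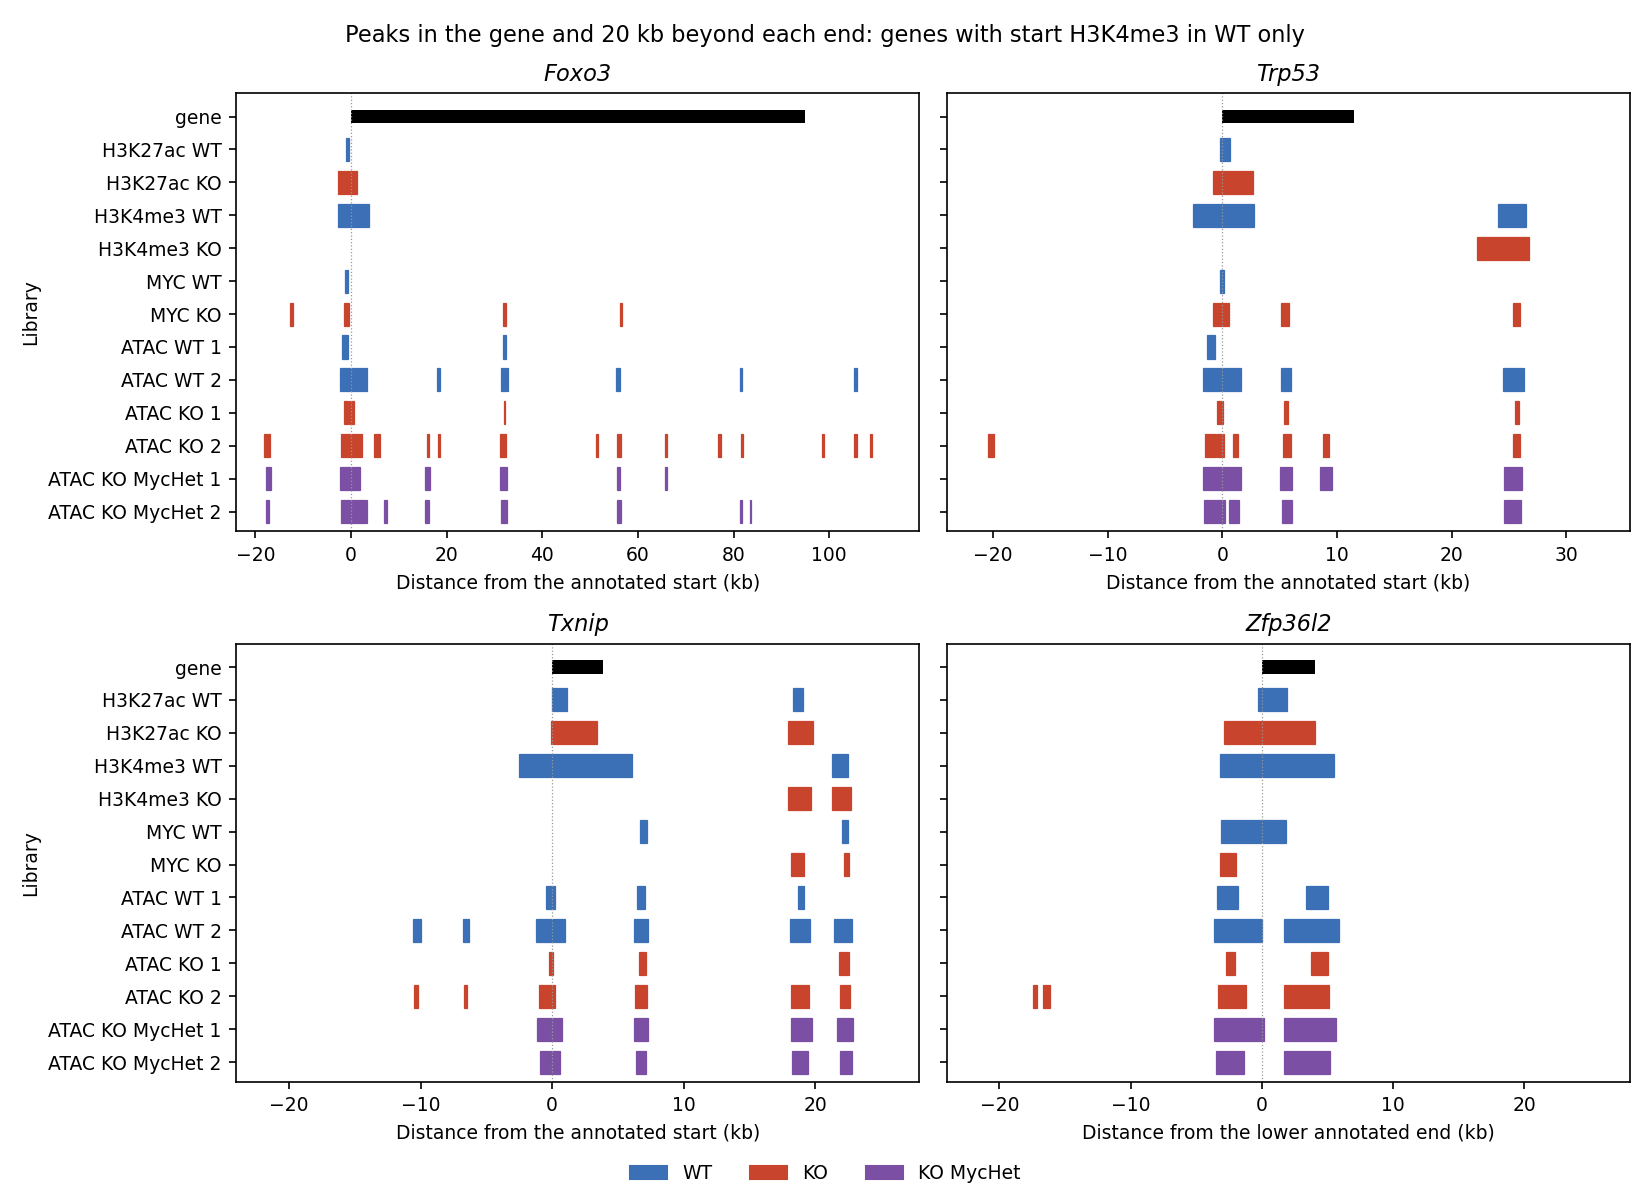
Peaks of the 12 libraries (rows, coloured by genotype) along Foxo3, Trp53, Txnip and Zfp36l2, drawn to scale against the distance in kb from the annotated start, or from the lower annotated end for Zfp36l2; the black bar is the gene. The H3K4me3 KO row is empty at all 4 genes' starts, and the H3K27ac KO row has a peak at each; the ATAC-seq rows have a peak at the starts of Foxo3, Trp53 and Txnip, and at the upper end of Zfp36l2.

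Txnip, whose product inhibits thioredoxin and glucose uptake, lies at chr3:96557957-96561857 (gene 56338, plus strand). The WT H3K4me3 peak spanned 8.57 kb, more than the whole gene, with a score of 92.5, and the KO list had none nearer than 17.9 kb. H3K27ac at the start was 1.14 kb wide (68.7) in WT and 3.52 kb wide (74.4) in KO, the nearest scores of the 4 genes with both. Downstream, the lists differed in another way. The window also reaches another protein-coding gene, Polr3gl, and which gene the sites below belong to was not tested. A region 18.7 kb after the start had H3K27ac in both genotypes (78.0 in WT and 198.8 in KO) and, in KO only, H3K4me3 (96.1) and MYC (81.6). MYC 6.9 kb after the start was listed in WT only (95.1), on DNA open in all 6 ATAC-seq libraries. A further MYC site, 22.2 kb after the start in WT and 22.4 kb in KO, was in both lists (84.6 and 123).

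Cited2 lies at chr10:17723228-17725674 (gene 17684, plus strand) with no other protein-coding gene in its window. Its H3K4me3 peak was 5.95 kb wide (311) in WT and 7.57 kb wide (147) in KO, so the KO peak was wider and stood lower in its list, at or above 30.8% of peaks against 52.2% in WT. H3K27ac (74.0) and MYC (52.9) were listed at the start in KO only, and the MYC peak covered all 300 promoter bases with the E-box. Both scores were low in their lists, at or above 31.8% of KO H3K27ac and 9.86% of KO MYC peaks. Fbxw7, at chr3:84814990-84979198 (gene 50754, plus strand), has 3 annotated starts, and only the first had start peaks. There H3K4me3 was 4.39 kb wide (359.9) in WT and 5.90 kb wide (255) in KO. H3K27ac at this start was listed in KO only with the highest such score among the members, 288, at or above 87.5% of its list. MYC was also listed there in KO only (70.5). Inside Fbxw7 the KO list had 3 more MYC peaks, 11.1, 29.0 and 141.7 kb from the first start, the last with a score of 268 that ranked 606 among 22086 KO peaks but met no peak of any other list. WT had no MYC peak in the whole Fbxw7 window.

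Zfp36l1 and Zfp36l2 encode paralogous mRNA decay factors, and their chromatin differed. Zfp36l1, at chr12:80107760-80113013 (gene 12192, minus strand), had wide H3K4me3 in both genotypes, 6.74 kb (224) in WT and 7.31 kb (169) in KO. H3K27ac at its start was listed in KO only, 4.15 kb wide with a score of 246; the peak lies within 1 kb of the start of Gm52006 as well. A region 19.3 kb upstream of Zfp36l1 had H3K27ac in both genotypes, 477 bp wide (89.9) in WT and 3736 bp wide (85.1) in KO. MYC was listed 18.0 kb upstream in WT (51.8), and 6.8 and 24.6 kb downstream of the start in KO (166 and 102), the KO peaks on DNA that no other list marked.

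Zfp36l2, at chr17:84183924-84187947 (gene 12193), had H3K27ac and MYC that both stood higher in the WT list than in the KO list. H3K27ac scored 292 in WT, rank 54 of 10078 peaks, with a width of 2.20 kb. In KO the peak was 6.95 kb wide, scored 82.2 and ranked 12442 of 20036. Txnip was the other member whose start H3K27ac stood higher in the WT list, at or above 54.9% of its peaks against 32.1% in KO. The WT MYC peak at the lower end was 3673 bp wide and scored 122, rank 1210 of 8774, with a second WT peak beside it (64.5). The KO MYC peak overlapped the wider WT peak but was centred 2.6 kb outside the gene's lower end and scored 76.6, so that start MYC was called in WT only; with a start window of 2.5 kb it was called in both. The WT H3K4me3 peak spanned 8.68 kb (84.6), and the nearest KO peak lay 57.4 kb away.

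**Figure D3:**
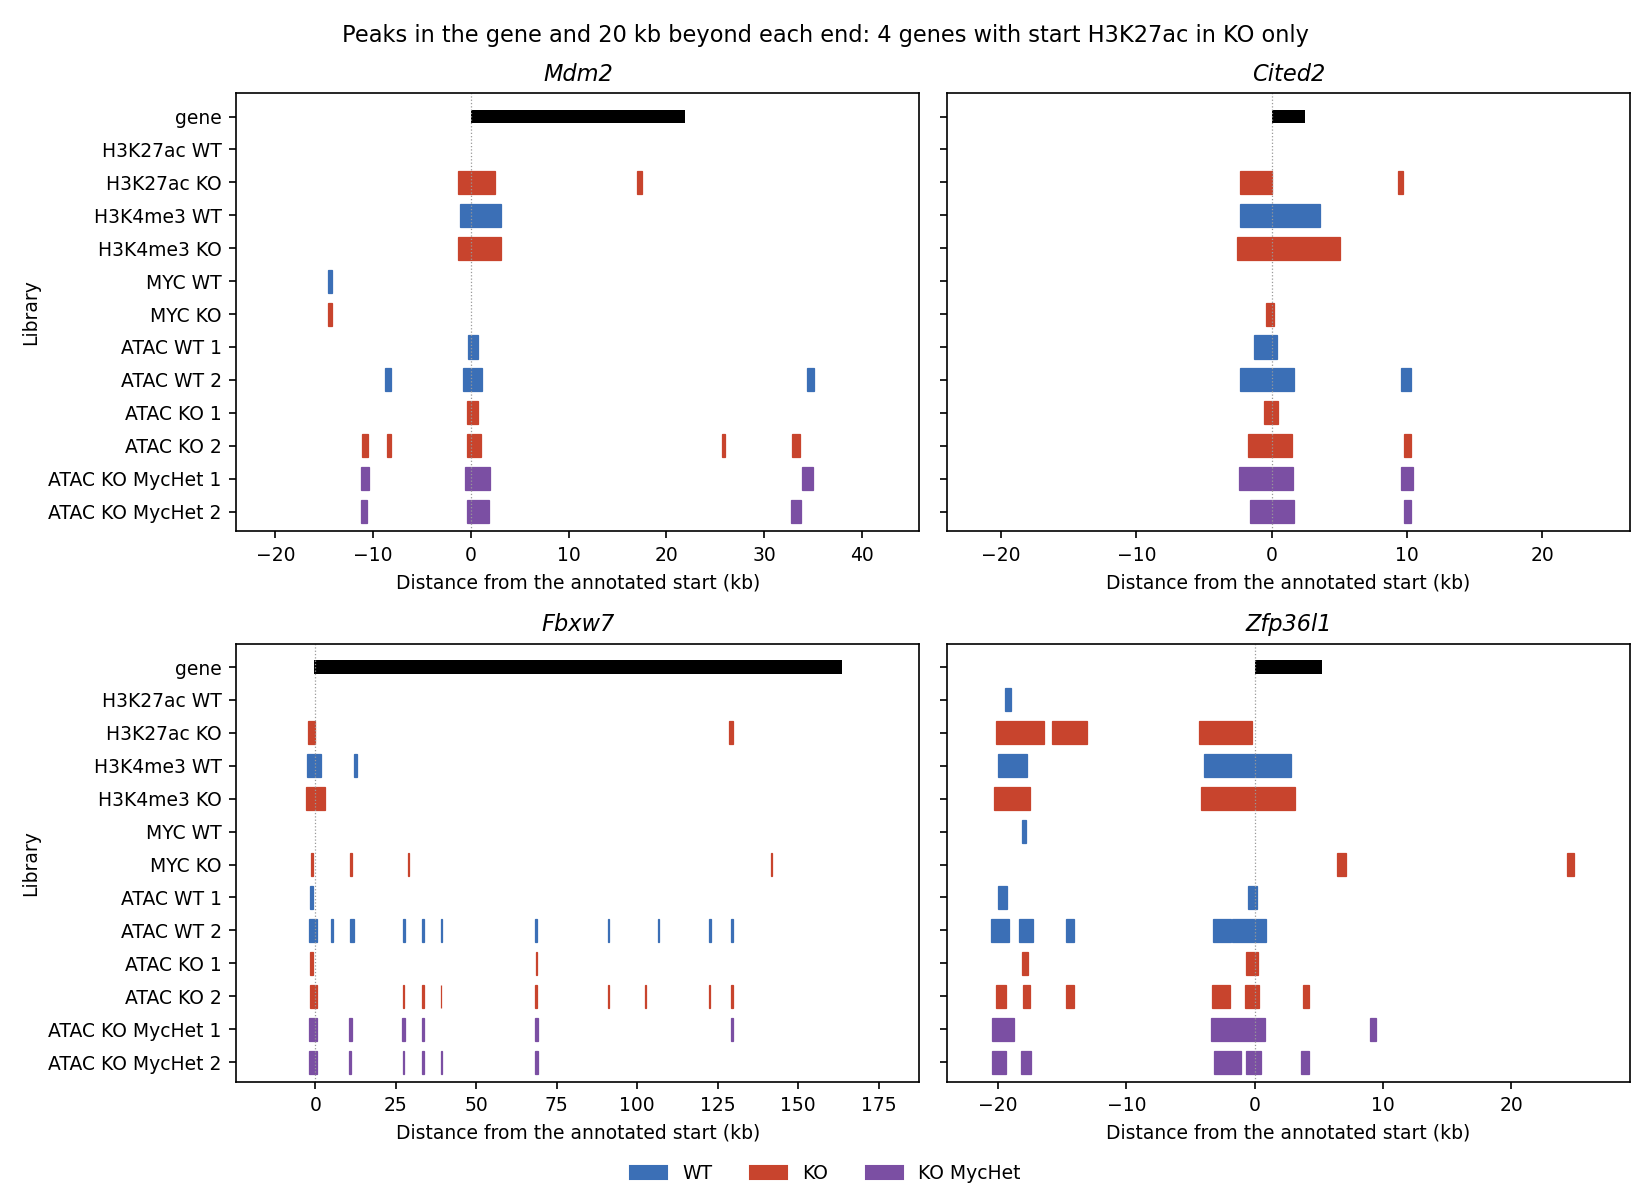
Peaks of the 12 libraries (rows, coloured by genotype) along Mdm2, Cited2, Fbxw7 and Zfp36l1 against the distance in kb from the first annotated start; the black bar is the gene. At each start the H3K27ac WT row is empty and the H3K27ac KO row has a peak, while H3K4me3 and ATAC-seq peaks are there in both genotypes.

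The 4 members without a KO H3K4me3 peak were among those with the widest WT peaks. By width of the WT peak, Zfp36l2, Txnip, Zfp36l1, Foxo3, Cited2 and Trp53 were over 5 kb, and the other 4 between 2.55 and 4.39 kb. Of the 6 wide ones 4 had no KO peak, and of the 4 narrower ones 0. Over all genes the call depended on width as well: 2.2% of genes with a WT start peak under 5 kb were WT only, 4.88% at 5 to 6 kb, 21.4% at 6 to 8 kb and 74.1% of 27 genes at 8 kb or more. In these width classes the members called were Trp53 and not Cited2 at 5 to 6 kb, Foxo3 and not Zfp36l1 at 6 to 8 kb, and both Txnip and Zfp36l2 at 8 kb or more. Read against width, 4 of 6 members with a WT peak of at least 5 kb were WT only, and so were 13.7% of 650 such genes. Trp53 differs from Txnip and Zfp36l2 in the score of its WT peak, 564 against 92.5 and 84.6.

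Peak by peak, both the narrowest and the widest WT H3K4me3 peaks often lacked a KO peak. Of WT peaks up to 1 kb wide, narrower than any member's start peak, 28.9% met no KO peak, and their median score was 70.4. Of WT peaks over 2 and up to 3 kb, 0.8605% met no KO peak, of those over 6 and up to 8 kb 22.4% (95% exact Clopper-Pearson interval 17.0% to 28.6%) and of the 25 over 8 kb 76.0% (54.9% to 90.6%). The median score was 469 for peaks over 3 and up to 4 kb and 69.0 for those over 8 kb. The KO list held 1338 H3K4me3 peaks of at least 5 kb, against 595 in the WT list, and KO peaks over 8 kb were not counted. Where a member had H3K4me3 in both lists the KO peak was the wider in 6 of 6, a call made for 92.1% of all genes with both. For H3K27ac it was the wider in 4 of 4 members (99.9% of all genes with both) and for MYC in 2 of 2 (89.6%), so the greater width in KO is not particular to these genes. Whether the peak caller's treatment of very wide enrichment bears on the absent KO peaks was not tested, and no H3K4me3 signal track was used here.

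**Figure D4:**
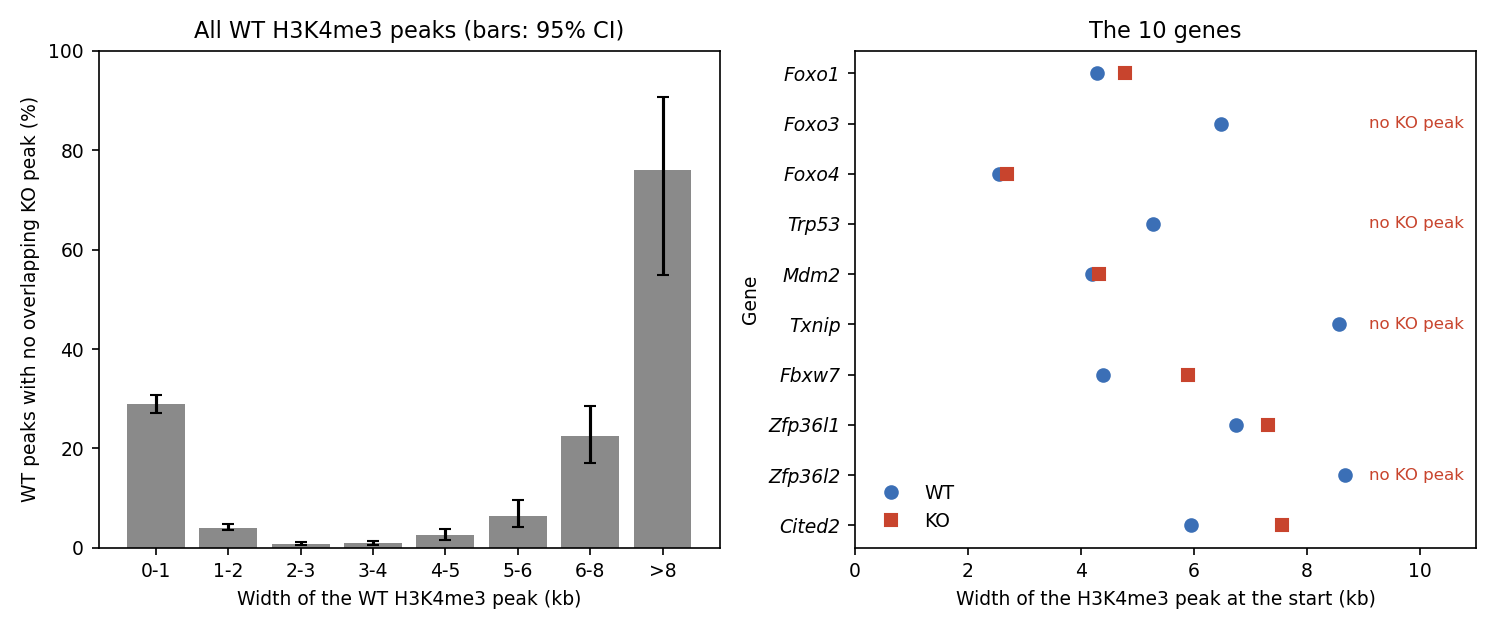
Left, percentage of WT H3K4me3 peaks with no overlapping KO peak (y axis) by width of the WT peak in kb (x axis), with 95% exact intervals. Right, width in kb of the H3K4me3 start peak of each of the 10 genes in WT (circles) and KO (squares); the 4 genes with no KO peak have WT widths of 5.28 to 8.68 kb.

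Counted over the whole windows, these genes had 6 H3K27ac peaks in WT and 17 in KO, 16 and 12 for H3K4me3, and 8 and 20 for MYC. The KO list gave 73.9% of the H3K27ac window peaks (exact interval 51.6% to 89.8%), and 66.5% of all H3K27ac peaks were from KO. For H3K4me3 the KO list gave 42.9% (24.5% to 62.8%) against 51.5% of all peaks, and for MYC 71.4% (51.3% to 86.8%) against 71.6%. The intervals cover counting error only, and each holds the share over all peaks, so no excess over the lists' lengths was detectable in the windows. MYC peaks were more numerous in KO than in WT at 6 genes, Foxo1, Foxo3, Trp53, Fbxw7, Zfp36l1 and Cited2, against 46.4% of all genes. They were more numerous in WT at Zfp36l2 alone, against 7.68%. H3K4me3 peaks were more numerous in WT at Foxo3, Trp53, Zfp36l2 and Fbxw7, the last through a small peak 12.5 kb into the gene (58.5), against 6.15% of all genes. H3K27ac peaks were more numerous in KO at 5 genes, the same 5 that had start H3K27ac in KO only, against 49.3% of all genes.

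At the starts, MYC was listed in KO only at Cited2 and Fbxw7, 2 of 10 genes against 14.1% of all genes and 24.3% of genes with WT H3K4me3. It was listed in both genotypes at Foxo3 and Trp53 (7.64% of all genes), in WT only at Zfp36l2 (2.16%) and in neither at Foxo1, Foxo4, Mdm2, Txnip and Zfp36l1 (76.1%). With equal numbers of peaks no member had start MYC in KO only, and at scores of at least 100 the 2 that did were Foxo3 and Trp53. Away from the starts many KO MYC peaks had no companion: 7 of the 20 in the windows (35.0%) met no peak of any other list, as did 48.3% of all KO MYC peaks. All 8 WT MYC window peaks met a peak of another list, whereas 2372 of all 8774 WT MYC peaks met none. Of the KO MYC window peaks 55.0% lay on a peak of the second KO ATAC-seq library, against 40.3% of all KO MYC peaks, and 5 of 20 (25%) overlapped a WT MYC peak, against 17.7% of all KO MYC peaks.

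**Figure D5:**
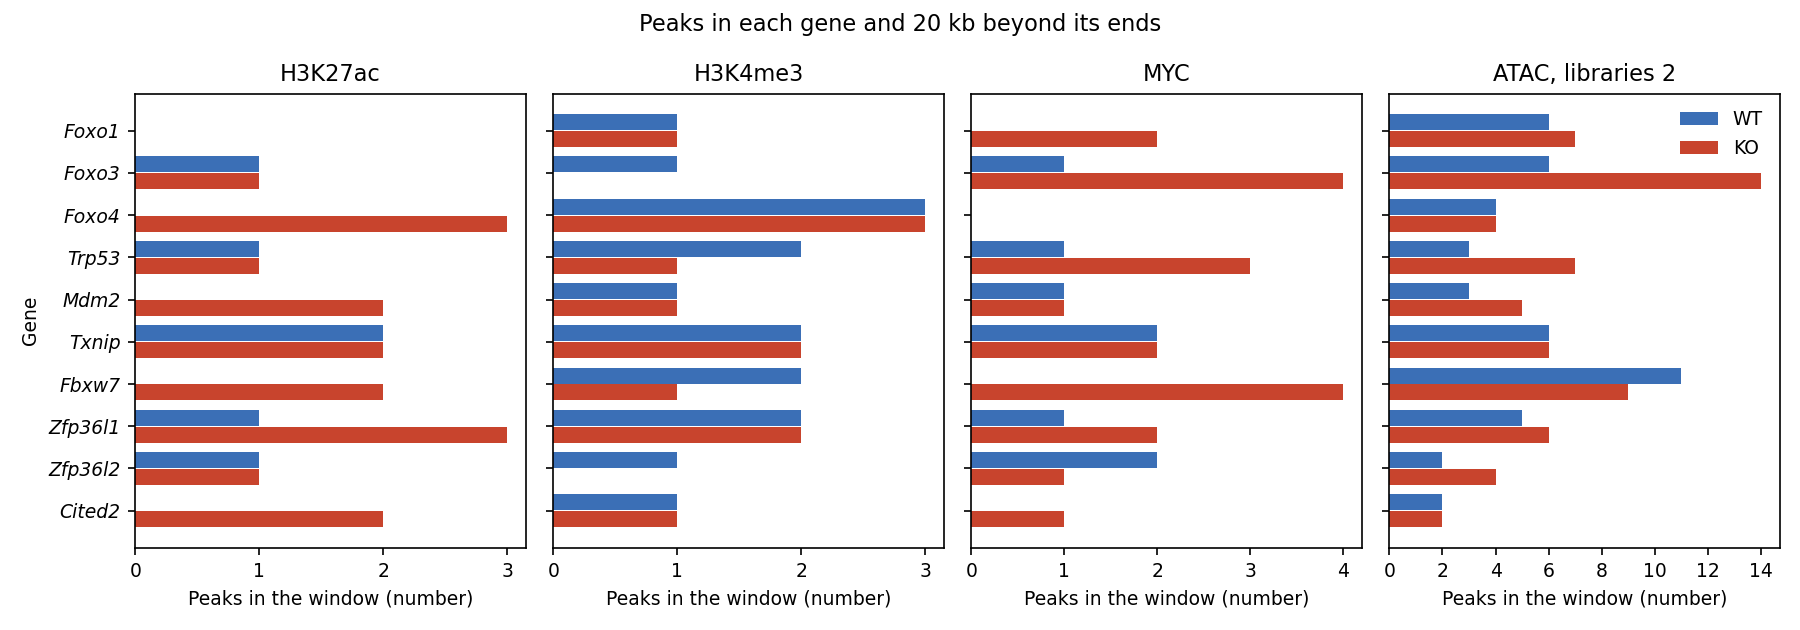
Number of peaks (x axis) inside each gene and 20 kb beyond its ends for the 10 genes (rows) in WT and KO, for H3K27ac, H3K4me3, MYC and the second WT and KO ATAC-seq libraries. H3K4me3 bars are never longer in KO, and MYC bars are longer in KO for 6 genes.

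Accessible starts were listed in both genotypes. A start peak was listed in all 6 ATAC-seq libraries for 9 of the 10 genes, and so it was for 41.2% of all genes. It was also listed in all 6 for 8582 of the 11659 genes with WT H3K4me3 at the start, as all 10 members had. Foxo4 lacked one in the first WT and the first KO library, the 2 shortest lists. Fbxw7 had the highest score of the 10 genes in every library but the first KO one, 320.2 and 1329.5 (WT), 198 and 1327 (KO), then 1095 and 1009 (KO MycHet). Mdm2 had 256 and 1046 (WT), 238 and 991 (KO), then 550.4 and 595 (KO MycHet). In both genes the first WT and KO libraries, with the short lists, scored low and the second high.

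At Trp53 the start scores were 98.3 and 558 (WT), 65.8 and 545 (KO), then 362 and 482 (KO MycHet). These were the highest scores within 1 kb and did not all come from the same site. The first WT peak ended 0.63 kb before the annotated start and did not overlap the first KO peak. The second KO score belonged to a peak 0.57 kb before the start, while the peak covering the start scored 95.5. Foxo3 had 144 and 634 (WT), 137 and 581 (KO), then 688 and 483 (KO MycHet). Txnip had 91.7 and 418 (WT), 54.2 and 587 (KO), then 340.2 and 404 (KO MycHet). So the 3 starts without a KO H3K4me3 peak were listed as open in every KO library.

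Zfp36l2, the fourth of them, had 201 and 691 (WT), 184 and 702 (KO), then 532 and 681 (KO MycHet). Cited2 had 208 and 918 (WT), 138 and 900.0 (KO), then 692 and 765 (KO MycHet). Foxo1 had 96.3 and 620.4 (WT), 150.4 and 373 (KO), then 404 and 342 (KO MycHet). Zfp36l1 had 67.3 and 144 (WT), 76.6 and 143 (KO), then 174 and 204 (KO MycHet). These scores ranged from at or above 26.1% of the list in the first WT library to 65.8% in the second KO MycHet one. Foxo4 had 519 in the second WT, 465 in the second KO and 358 and 248 in the KO MycHet libraries. The WT and KO ranges overlap, but each spans a short and a long list, so genotypes were set side by side within like-numbered libraries. In the first pair the KO score was the lower at 7 of 9 genes (59% of all genes with both), all but Foxo1 and Zfp36l1. At Trp53 the scores of this pair came from peaks that do not overlap. In the second pair the KO score was the lower at 8 of 10 (71.4%), all but Txnip and Zfp36l2. The widest KO start peak was wider than the WT one at 3 of 9 genes in the first libraries (40.7% of all genes with both) and at 0 of 10 in the second (8.07%). The median peak of the second libraries was 549 bp wide in KO and 697 bp in WT. No member had a start peak in both KO and neither WT library (0.0231% of all genes) or in both WT and neither KO library (0.0185%). With 2 libraries against 2, the smallest two-sided p of an exact permutation test is 0.33, so no test was made; the labels do not say whether the 2 libraries of a genotype came from separate mice.

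Merging the peaks of all 6 libraries gave 72 accessible regions in the windows, of 85640 in all. Of these 13 were in every library (18.1% of the 72, against 14.7% of all regions), 28 in the 4 longer lists (38.9% against 43.6%) and 20 in 1 library only (27.8% against 26%). None was in both KO and neither WT library (0.175% of all regions) or the reverse (0.132%). In WT the second library alone, with no KO or KO MycHet library, had 3 regions, against 10.9% of all. The second KO library without either KO MycHet library had 21 (29.2%, against 20.5%). A further class was chosen after its values were seen: regions in the second KO and both KO MycHet libraries and in no WT library, of which there were 3 (4.17%, against 3.28% of all regions). They were 17.5 kb upstream of the Foxo3 start (scores 213, 149 and 97.3), 16.0 kb into Foxo3 (143, 124 and 175) and 10.8 kb upstream of Mdm2 (218, 80.4 and 147). Regions in both KO MycHet libraries and no KO library numbered 2, 5.7 kb upstream of Foxo1 and 11.1 kb into Fbxw7, against 1.21% of all regions. The Foxo1 region had low scores, 58.2 and 61.1. The Fbxw7 region (94.5 and 75.6) was also in the second WT library, with a higher score (131). Foxo3 had the most regions, 16, of which 7 were in 1 library only, and Cited2 had 2.

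The pattern of start peaks over the 12 libraries put Foxo3 and Trp53 together: both had a start peak in 11 libraries and lacked it only for KO H3K4me3, as 15 other genes did. Txnip shared its pattern with 16 genes and Zfp36l2 with 2. By contrast Mdm2 and Zfp36l1 had a common pattern with 2254 other genes, among them Aen, Akt1 and Apaf1, and Fbxw7 and Cited2 one with 1336, among them Bbc3, Ccng1 and Ccng2. Foxo1 shared its pattern with 1313 genes, among them Bcl2l11, Cdkn2a and Eda2r, and Foxo4 shared its own with 260, among them Txnrd2. Likeness here is the same presence or absence in each of the 12 lists.

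The partners and targets of these regulators, 143 other genes in 8 lists, had start H3K27ac in 40 genes in WT and 98 in KO. It was in KO only for 62 of them (43.4%, against 25.7% of all genes and 45.7% of genes with WT H3K4me3) and in WT only for 4 (2.80%, against 0.744% of all). Start MYC was listed for 24 genes in WT and 54 in KO, in KO only for 38 (26.6%, against 14.1% of all genes and 24.3% of genes with WT H3K4me3) and in WT only for 8 (5.59%, against 2.16% of all). Start H3K4me3 was listed for 127 in WT and 120 in KO, and in KO only for 3 (2.10%, against 2.62% of all genes). The 143 include genes without WT H3K4me3, so the H3K27ac and MYC shares above have another base than those of genes with WT H3K4me3. The WT only shares of H3K27ac and MYC were set against all genes alone. Of all genes 53.9% had WT H3K4me3 at the start, against 127 of the 143. Start H3K4me3 was in WT only for 10 genes, 6.99% of the 143, against 1.53% of all genes. These are 10 of the 127 with WT H3K4me3, against 2.84% of all genes with it. They included Stk4, Il7r, Bcl6, Irs2, Ccnd2, Gfi1, Myc and Zfp36. The WT peaks of these ranged from 1.02 kb at Il7r to 8.02 kb at Ccnd2.

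All 8 lists had more genes with start H3K27ac and with start MYC in KO than in WT, and no difference between lists was tested. The same direction held over all genes: start H3K27ac was listed at 14.6% of them in WT and 39.6% in KO. Start MYC was in KO only at 14.1% of all genes and in WT only at 2.16%. H3K4me3 was in WT only at 1.53%. FoxO targets (24 genes) had start H3K27ac in 5 in WT and 19 in KO and MYC in 1 and 9, and 4 of them had H3K4me3 in WT only: Il7r, Bcl6, Irs2 and Ccnd2. The genes that act on FoxO (17) had H3K27ac in 4 and 10, and H3K4me3 in 15 and 13; the kinase gene Stk4 was among those with H3K4me3 in WT only, with a WT peak 3.30 kb wide. The p53 targets (26) had H3K27ac in 4 and 15, H3K4me3 in 23 and 24 and MYC in 3 and 9. The p53 regulators (16) had H3K27ac in 6 and 12, H3K4me3 in 14 and 14 and MYC in 3 and 7. No gene of either p53 list had H3K4me3 in WT only, unlike Trp53 itself. The quiescence regulators (23) had H3K27ac in 6 and 15, H3K4me3 in 20 and 18 and MYC in 5 and 7, with Meis1 and Junb carrying H3K27ac in WT only.

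Among genes with start MYC in KO only, high scores were those of Ywhag (116) and Pik3ca (104) of the FoxO regulators, Sesn3 (117), Irs2 (100.0) and Pik3ip1 (87.9) of the FoxO targets, and Tigar (146), Ddb2 (133) and Bbc3 (97.5) of the p53 targets. Of the p53 regulators they were Atm (84.0), Ep300 (71.9) and Kat5 (69.0), and of the quiescence regulators Nr4a2 (65.5) and Nr4a1 (60.1). Around Fbxw7 they were its substrate genes Jun (177) and Srebf1 (57.6) and the ligase subunit gene Rbx1 (78.0). Around Zfp36l1 and Zfp36l2 they were the exonuclease gene Xrn1 (80.0), Cnot8 (78.1) and Cnot6 (67.4) of the deadenylase complex, and for Txnip and Cited2 it was Cited4 (59.9). Start MYC in WT only was listed at Zfp36 (100.6), a paralogue of Zfp36l1 and Zfp36l2, at Rb1 (79.3) and Hes1 (66.4) of the quiescence regulators, and at Ywhaz (67), Skp1 (59.5), Rpl11 (58.1) and Gtse1 (51.1). Zfp36 also had H3K27ac (129) and H3K4me3 (131, 7.37 kb wide) in WT only. Zfp36l2 had start MYC in WT only as well, but not with a start window of 2.5 kb or with its upper end as the start.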

How the data were processed

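The 10 genes, the pathway and marker lists and the comparisons were chosen with earlier results of these data known. Peaks were taken as the authors deposited them, 1 list per library. The score of each peak is the value from the authors' peak caller as deposited, named MACS by the peak names; its scale is not stated in the labels. It was used here only to describe, rank and filter peaks. Per the submitters' processing notes the build was mm10 and the tools CASAVA, TopHat and Cufflinks; for the ChIP-seq and ATAC-seq lists, what aligned the reads, how the caller was set and whether an input was used is not given in the sources used here. Of each genotype's ATAC-seq libraries the first has no number in its title and was taken as number 1.

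Gene positions came from RefSeq (GRCm38.p6); 17273 of 21627 protein-coding genes had a strand and start in the promoter table, and either annotated end served for the rest. Peaks overlapped when they shared 1 bp. Peaks on chromosome Y were not used. ATAC-seq peaks were merged across libraries. Shares have exact Clopper-Pearson 95% intervals, for counting error only. Named beyond the 10 genes were neighbours whose starts share a peak, up to 3 genes per pathway list with MYC in KO only and up to 2 in WT only by score, and up to 3 list genes with a member's pattern. List genes with H3K4me3 or H3K27ac in WT only were named after their values were seen. All 178 listed genes were matched; some that the naming rule picks are not reported here. Python 3.11.15, pandas 2.3.3, numpy 2.4.6, scipy 1.17.1, matplotlib 3.10.9 and bedtools 2.31.1 were used; the overlap code was tested on simulated peaks and gave the bedtools counts. Alternatives changed the start window, the flank, the overlap, the lowest score, the list lengths and the ATAC-seq libraries.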

Additional observations from a re-analysis of the deposited data

How the results depend on the processing

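Over all alternatives, 59 recomputed values stayed within 1.5 times the count, or within the interval of the share, reported above, and 19 did not. With a start window of 2.5 kb, MYC in WT only went to 0 genes, and so it did, in an alternative chosen after seeing the data, with the upper end as the start of Foxo4 and Zfp36l2. With that upper end Foxo4 had no start H3K4me3 or H3K27ac, which left start H3K4me3 at 9 genes in WT and 5 in KO. Zfp36l2 then took the place of Foxo4 among the 5 genes with H3K27ac in KO only. With peaks scoring at least 100, H3K27ac was in WT only at 1 gene (Zfp36l2), H3K4me3 in WT only at 2 (Foxo3 and Trp53), the KO share of MYC window peaks was 87.5% and 5 ATAC-seq regions were in every library; H3K27ac in KO only still counted 5 genes, but with Foxo3 and Trp53 in place of Foxo4 and Cited2, and MYC in KO only still 2, then Foxo3 and Trp53. With the longer list cut to the length of the shorter by score, H3K27ac was in KO only at 3 genes (Fbxw7, Mdm2 and Zfp36l1) and in WT only at 2 (Txnip and Zfp36l2), MYC was in KO only at 0, the KO share of MYC window peaks was 50.0%, and H3K4me3 in WT only stayed at the same 4 genes. Leaving out 1 ATAC-seq library at a time gave 0 to 19 regions in all KO and no WT libraries, 19 without the first KO and 6 without the second WT library. It gave 0 to 5 in all WT and no KO libraries, 5 without the first WT and 2 without the second KO library, and 13 to 18 regions in every library. Within the replicate block of the libraries numbered 1, 6 regions were in KO and not WT and 2 the reverse; within those numbered 2, 19 and 5, and 32 regions were in every library. No label says that a number marks a shared mouse or day. The cause of these shifts was not tested. Depth is unknown, and a list that is short can miss weak peaks.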
